A study of Mus musculus with 14 samples.

Results

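The DNA damage checkpoint and end-joining genes are 40 mouse genes chosen by symbol, from the sensor kinases Atm and Atr to the end-joining factors around Xrcc5 and Xrcc6. All 40 were found in the input RNA-seq table and passed its filter on low values, among 11317 genes tested. Of the 40, 26 had rows in the m6A-RIP table, 24 had peaks in the Igf2bp3-RIP table and 31 had peaks in the Lin28a-RIP table. Muscle stem cells (MuSCs) of mouse skeletal muscle were compared as a control group and a group labelled Lin28a positive (Lin28a+), each with 2 libraries of input RNA, of m6A-RIP and of Igf2bp3-RIP, and Lin28a-RIP was made from the Lin28a+ group alone (2 libraries). According to the methods, Lin28a+ MuSCs were sorted from muscle of mice that carry Lin28a-CreERT2 and LSL-tdTomato. The red reporter can mark cells in which the Lin28a promoter drove the recombinase, now or in an ancestor. How and when the recombinase was induced is not given in the sources used here. Both groups were grown on Matrigel in DMEM with serum, and no treatment other than the pull-down is given. Age, sex and strain of the mice, and whether libraries of a pair came from separate animals or cultures, are not given in the sources used here. The p-values therefore rest on the spread between these libraries, which may be technical, and on counting error. Among input genes of 20 to 100 counts that spread was below counting error (variance 0.634 times the mean). The p-values of such genes may thus reflect counting error more than any spread between libraries.

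Breaks in DNA are sensed by the Mre11a-Rad50-Nbn (MRN) complex, which activates the kinase Atm, while single-stranded DNA at stalled replication forks recruits Atr with its partner Atrip. Both kinases hold the cell cycle through Chek1 and Chek2, which act on Wee1 and Cdc25a and so on the cyclin-dependent kinases. In non-homologous end joining the Ku proteins encoded by Xrcc5 and Xrcc6 cap the broken ends, recruit the kinase Prkdc and hand over to the ligase Lig4 with Xrcc4 and Nhej1. RIP-seq counts the RNA pulled down with an antibody, here against Lin28a (an RNA-binding protein of embryonic and some adult stem cells), Igf2bp3 (a protein that binds RNA carrying m6A) or m6A itself, the methyl mark on internal adenosines of mRNA.

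Counts summed to 4842915 to 6220960 per input library, 21350962 to 31830638 per m6A-RIP library, 9215355 to 34142094 per Igf2bp3-RIP library, and 33908110 and 36610494 in the Lin28a-RIP libraries. The Lin28a+ columns of the input table are headed with the names of m6A-RIP libraries and were taken as input because the input samples' labels name that table. Lin28a itself was not analysed here, so its own counts do not check the labels. Of 10 myogenic markers, 10 passed the filter, and Myod1, the myoblast transcription factor, measured 4651 and 4713 CPM in control against 4723 and 4728 CPM in Lin28a+ MuSCs. CPM here are counts per library size, the latter scaled by edgeR's TMM factor. Of the 10, Myog (log2 fold change 1.86), Cdh15 (0.77) and Pax7 (0.36) were higher in Lin28a+ MuSCs. Vcam1 (-1.93), Myf5 (-1.21), Chrna1 (-0.92), Des (-0.53) and Mymk (-0.20) were lower, and Myod1 and Itga7 were not called. Their part in the changes of the checkpoint genes was not tested here. No endothelial (3 of 7 listed), macrophage (5 of 6) or Schwann cell marker (2 of 4) passed the filter, and their summed levels were 0.581 to 0.827, 1.60 to 3.25 and 0.358 to 0.845 CPM. The 5 listed fibro-adipogenic markers summed to 125 to 132 CPM, nearly all Col3a1. Of the 3 tested, Ly6a was higher in Lin28a+ MuSCs (log2 fold change 1.61, from 3.93 and 4.51 to 13.6 and 12.5 CPM), and Col3a1 and Col1a1 were not called. Smooth muscle and pericyte markers (6 of 8 listed) summed to 5704 and 5734 CPM in the control libraries against 7557 and 7577 CPM in the Lin28a+ libraries, of which Acta2 made up 5401 to 7439 CPM. Of the 5 tested, 3 were higher, with Mcam at 3.17, Pdgfrb at 1.27 and Acta2 at 0.46, and 2 lower, with Tagln at -1.92 and Rgs5 at -3.35. In bulk RNA, fewer cells of a type and less RNA per cell cannot be told apart.

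The first question was how the RNA of these genes differed between Lin28a+ and control MuSCs. It did not move as a block. In Lin28a+ MuSCs, 11 of the 40 genes were higher and 11 lower, against 28.1% and 28.7% of all genes tested, and 18 did not pass the test. The median log2 fold change of the 40 genes was 0.02, beside 0.01 for all genes. The highest gene was Rad9a (0.82) and the lowest Atm (-1.18). The 4 large kinases of the PI3K-related family among the 40 genes, grouped after their values were seen, were lower in edgeR (Atm, Atr, Prkdc and Smg1). DESeq2 kept Atm and Smg1, and the adjusted p there was 0.457 for Atr and 0.0689 for Prkdc. Kinases of the family outside the 40 genes were not read. The calls come from edgeR's quasi-likelihood test at a Benjamini-Hochberg adjusted p under 0.05 over all genes. With DESeq2, 8 of the 22 calls held: Atm, Smg1, Trip12, Wee1, Xrcc5 and Nucks1 as lower, and Tipin and Nop53 as higher. The other 14 had adjusted p from 0.0502 (Mdc1) to 0.469 (Rad17) in DESeq2, and 3039 of all genes passed there. The deposited input values carry decimals, and their variance between replicates was 0.634 times the mean in genes of 20 to 100 counts, less than counting alone would give. For that reason no standard error or interval given here is smaller than counting error alone would make it. Why the tools differ, and which is closer to the spread between cultures, was not tested.

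**Figure D1:**
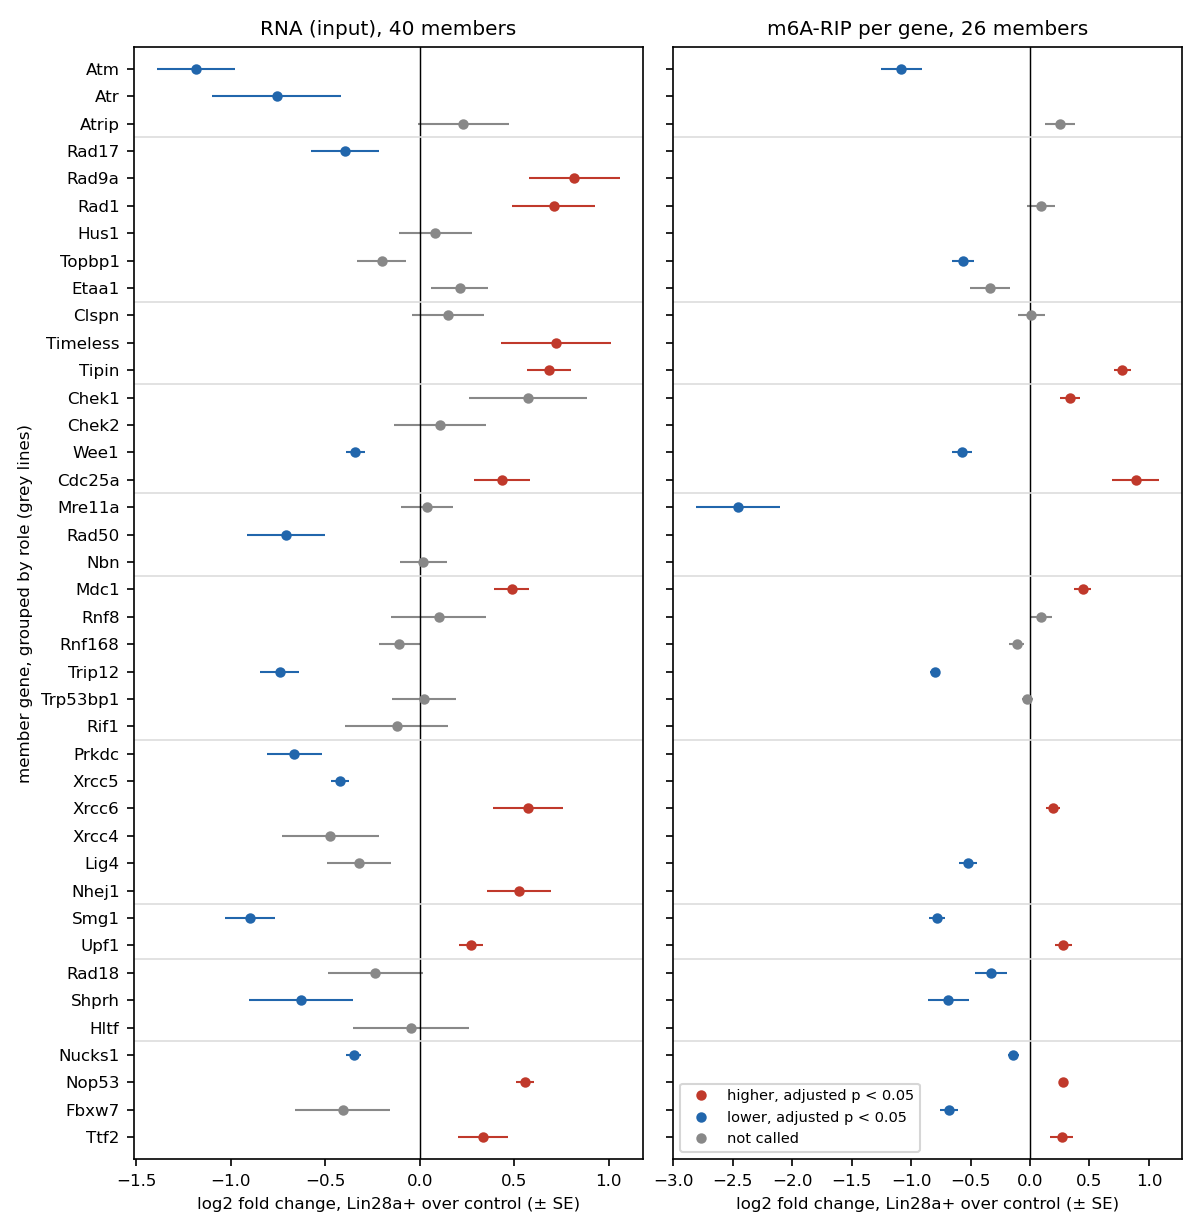
Log2 fold change of Lin28a+ over control MuSCs (x axis, bars are standard errors) for each gene (y axis, grouped by role), in input RNA (left) and in m6A-RIP summed per gene (right). Red points were higher and blue points lower at an adjusted p under 0.05, and grey points were not called. The lowest RNA value is Atm at -1.18 and the lowest m6A-RIP value Mre11a at -2.46.

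Among the upstream kinases, Atm, which responds to double-strand breaks, had 16.5 and 14.6 CPM in the control and 7.08 and 6.54 CPM in the Lin28a+ libraries. Both Lin28a+ libraries lay below both controls, and the log2 fold change was -1.18 (SE 0.21, adjusted p = 2.90e-04 in edgeR). Atr, the kinase of stalled forks, had 4.50 and 4.67 CPM in the control libraries and 2.75 and 2.66 CPM in Lin28a+ MuSCs. The groups did not overlap (log2 fold change -0.76, SE 0.34, adjusted p = 0.0403 in edgeR), but these levels rest on 13 to 29 counts a library, and the call was lost whenever any 1 of the 4 libraries was left out (adjusted p 0.0754 to 0.130). Atrip, the partner that brings Atr to DNA, was not called (0.23, 95% interval -0.24 to 0.70).

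In the clamp and its helpers, the clamp subunits Rad9a and Rad1 rose and the loader subunit Rad17 was lower. Rad9a measured 4.87 and 5.31 CPM in control against 9.43 and 8.59 CPM in Lin28a+ MuSCs. Rad1 stood at 6.18 and 6.76 CPM in control and at 10.6 CPM in both Lin28a+ libraries. Neither gene's groups overlapped, with log2 fold changes of 0.82 (SE 0.24, adjusted p = 0.00171 in edgeR) and 0.71 (SE 0.22, adjusted p = 0.00267). The third subunit of that ring, Hus1, was not called at 0.08 (95% interval -0.29 to 0.46). Rad17 had a log2 fold change of -0.40 and lost its call in all 4 fits that left out a library (adjusted p 0.0759 to 0.148). The Atr activators Topbp1 (-0.20) and Etaa1 (0.21) were not called.

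The fork mediators Timeless and Tipin, which form a complex that travels with the replication fork, were both higher. Timeless had 3.75 and 3.54 CPM in the control libraries and 6.29 and 5.72 CPM in Lin28a+ MuSCs. Tipin measured 24.0 and 22.5 CPM in control against 37.5 and 37.0 CPM in Lin28a+ MuSCs. For Tipin the log2 fold change of 0.68 (SE 0.12, adjusted p = 2.22e-04 in edgeR) held in every alternative run. That of Timeless was 0.72 (SE 0.29, adjusted p = 0.0228) and lost its call without control 1, without control 2 and without Lin28a+ library 1 (adjusted p 0.0556 to 0.123). Clspn, the adaptor through which Atr activates Chek1, was not called (0.15, 95% interval -0.23 to 0.52).

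Of the effectors, Wee1 and Cdc25a, which act against each other on cyclin-dependent kinases, moved in opposite directions. Wee1, the inhibitory kinase, stood at 174 and 180 CPM in control and at 145 and 135 CPM in Lin28a+ MuSCs. Cdc25a, the activating phosphatase, had 15.9 and 14.6 CPM in the control libraries and 20.8 and 20.4 CPM in Lin28a+ MuSCs. Wee1 was lower in both Lin28a+ libraries (-0.34, SE 0.05, adjusted p = 9.72e-04 in edgeR) and Cdc25a higher in both (0.44, SE 0.15, adjusted p = 0.00696), the latter not called without control 2 (adjusted p = 0.0800). The checkpoint kinases themselves were not called. Chek1 measured 2.81 and 3.70 CPM in control against 4.91 CPM in both Lin28a+ libraries, a log2 fold change of 0.57 with a 95% interval of -0.04 to 1.19. Chek2 stood at 0.11 (-0.37 to 0.59).

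Within the MRN complex, Rad50, the ATPase that tethers the broken ends, stood at 10.9 and 13.5 CPM in control and at 7.86 and 7.16 CPM in Lin28a+ MuSCs. It was lower (-0.71, SE 0.21, adjusted p = 0.00704 in edgeR), and without control 2 the adjusted p was 0.0718. The nuclease Mre11a and the adaptor Nbn were flat in RNA, at 0.04 (95% interval -0.23 to 0.31) and 0.02 (-0.22 to 0.26).

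In the chromatin response at breaks, Mdc1, the reader of phosphorylated histone H2ax, rose and Trip12, a ubiquitin ligase that limits Rnf168, fell. Mdc1 had 39.7 and 37.5 CPM in the control libraries and 55.4 and 52.5 CPM in Lin28a+ MuSCs. Trip12 measured 48.3 and 49.1 CPM in control against 28.3 and 30.1 CPM in Lin28a+ MuSCs. Neither gene's groups overlapped (0.49, SE 0.09, adjusted p = 6.84e-04, and -0.74, SE 0.10, adjusted p = 1.28e-04, both in edgeR). The ubiquitin ligases Rnf8 (0.10) and Rnf168 (-0.11) and the end-protecting proteins Trp53bp1 (0.02) and Rif1 (-0.12), which hold back resection, were not called.

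The end-joining genes were called in both directions, and so were the Ku subunits. Prkdc, the kinase that Ku recruits, stood at 24.7 and 24.8 CPM in control and at 15.7 and 15.5 CPM in Lin28a+ MuSCs. Xrcc6 had 9.18 and 9.65 CPM in the control libraries and 13.8 and 14.3 CPM in Lin28a+ MuSCs. Xrcc5, its partner in Ku, measured 199 and 207 CPM in control against 149 and 154 CPM in Lin28a+ MuSCs. All 3 genes were separated between groups, with log2 fold changes of -0.66 for Prkdc (SE 0.14, adjusted p = 2.82e-04 in edgeR), 0.57 for Xrcc6 (SE 0.18, adjusted p = 0.00444) and -0.42 for Xrcc5 (SE 0.05, adjusted p = 2.56e-04). In DESeq2 the adjusted p was 0.0689 for Prkdc and 0.292 for Xrcc6. Nhej1, a scaffold of the ligation step, was higher (0.53) and lost that call without control 1 and without Lin28a+ library 2 (adjusted p 0.0748 and 0.154). Xrcc4 (-0.47, 95% interval -0.98 to 0.03) and Lig4 (-0.32, -0.65 to 0.01) were not called, although Lig4 was called lower without control 2 (-0.49, adjusted p = 0.0334 in edgeR) and stood at -0.16 without control 1.

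The RNA surveillance pair moved in opposite directions. Smg1, the kinase that phosphorylates Upf1 in nonsense-mediated decay, stood at 32.6 and 32.0 CPM in control and at 16.7 and 18.0 CPM in Lin28a+ MuSCs. Upf1, the helicase of that pathway, had 125 and 136 CPM in the control libraries and 166 and 150 CPM in Lin28a+ MuSCs. The log2 fold changes were -0.90 for Smg1 (SE 0.13, adjusted p = 1.21e-04 in edgeR) and 0.27 for Upf1 (SE 0.06, adjusted p = 0.0144), the second not called without Lin28a+ library 1 (adjusted p = 0.0590).

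Among the ubiquitin ligases that act on the sliding clamp of replication, Shprh measured 6.37 and 6.92 CPM in control against 4.91 and 3.68 CPM in Lin28a+ MuSCs. Its log2 fold change was -0.63 (SE 0.27, adjusted p = 0.0364 in edgeR), and the call was lost without control 1, without control 2 and without Lin28a+ library 2 (adjusted p 0.0540 to 0.259). Rad18 (-0.23) and Hltf (-0.05) were not called.

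Of the remaining genes, Nop53, a nucleolar protein of ribosome assembly, stood at 143 and 140 CPM in control and at 209 and 207 CPM in Lin28a+ MuSCs. Nucks1, a chromatin protein, had 283 and 282 CPM in the control libraries and 222 CPM in both Lin28a+ libraries. Both were separated between groups (0.56, SE 0.05, adjusted p = 4.57e-05, and -0.35, SE 0.04, adjusted p = 1.28e-04, both in edgeR). Ttf2, a transcription termination factor, was higher (0.34), without a call when control 1, control 2 or Lin28a+ library 2 was left out (adjusted p 0.0564 to 0.283). Fbxw7, the substrate receptor of a ubiquitin ligase for cyclin E, was not called (-0.41, 95% interval -0.90 to 0.09). Over all 40 genes, the groups did not overlap in 34, 17 in each direction, which is near the share among all genes tested (84.8%, of which 43% higher and 41.8% lower).

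Neighbouring genes of the same pathways were read from lists that hold none of the 40, against the same 28.1% higher and 28.7% lower of all genes. Of 13 other end-joining genes tested, 4 were higher and 0 lower in edgeR, among them the polymerase Poll at 0.79. Of 14 other break-site chromatin genes, 3 were higher, among them the histone H2ax at 1.50 and Mad2l2, a shieldin subunit, also at 1.50, and 2 were lower, among them the ubiquitin ligase Rnf169 (-0.38). Of 23 other checkpoint genes, 14 were higher, led by the phosphatases Cdc25b (1.67) and Cdc25c (1.40), and 4 were lower, namely Gadd45a (-1.27), Mdm2 (-1.08), Cdkn1a (-0.57) and Mdm4 (-0.52). Trp53, which regulates several of these, was higher (0.79), and Ppm1d was not called (0.01). Of 16 S-phase genes, 14 were higher, with Gins1 at 1.41 and Cdc6 at 1.28, and 2 were lower, Rrm2 (-0.27) and the cycling marker Mki67 (-0.19). Their part in the changes of the checkpoint genes was not tested.

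**Figure D2:**
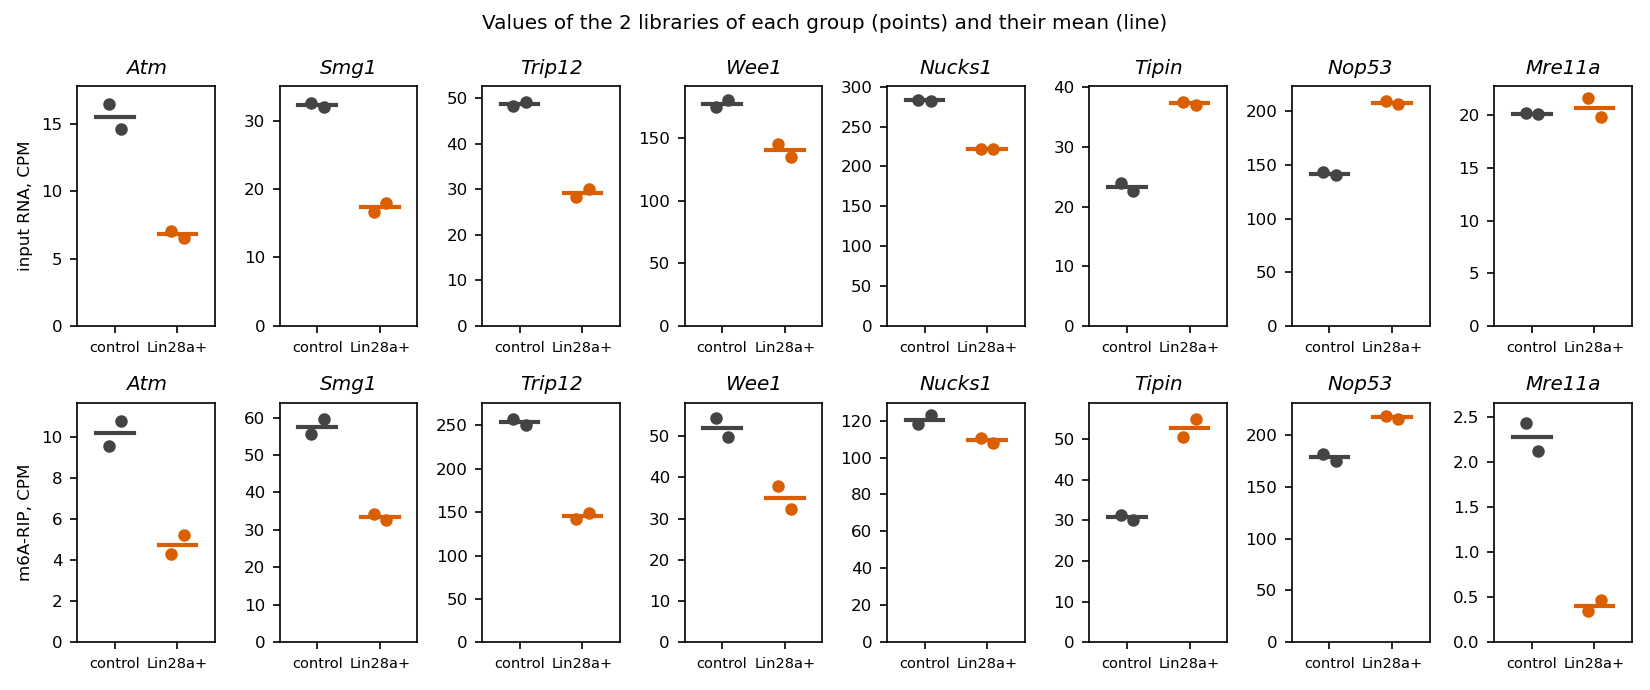
Level in each library (points) and group mean (lines) for 8 genes in input RNA (upper row, CPM) and m6A-RIP summed per gene (lower row, CPM), control in grey and Lin28a+ in orange. Atm, Smg1, Trip12, Wee1 and Nucks1 lie lower and Tipin and Nop53 higher in both Lin28a+ libraries of each assay, and Mre11a differs in m6A-RIP alone.

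Start sites were read for a shared word because genes of the S phase rose together with part of the set. Promoter windows from 250 bases before to 50 bases after the start site (RefSeq, GRCm38.p6) were at hand for 32 of the 40 genes and were searched on both strands for 4 words of the E2F type, TTTGGCGC, TTTCCCGC, TTTCGCGC and TTTGCCGC. At least 1 word stood in the windows of 6 genes (Topbp1, Clspn, Chek2, Cdc25a, Mdc1 and Xrcc6), or 18.8%, against 2.61% of all 27025 genes with a window (2.27% of 32851 windows). That background holds many genes outside the 11317 tested in RNA, whereas all 40 genes of the set were tested. The 2 shares are thus of unlike sets, and a share over tested genes alone was not computed. The word was present in 3 of the 8 higher genes with a window, in 0 of the 8 lower genes and in 3 of the 16 that were not called. The calls are those of edgeR: DESeq2 kept none of the 3 higher genes (adjusted p 0.337 for Cdc25a, 0.0502 for Mdc1 and 0.292 for Xrcc6), and Tipin and Nop53, which it kept, have no window. A match is a description of these letters and no evidence of binding. The words of the 3 higher genes, in capitals within the bases around them, are shown with those of Topbp1 and Chek2, which were not called. The word of Clspn, also not called, lies past the start site of its window and is not shown. The start site of a window is not always the start of the gene's span used for the peaks below. At least the words of Topbp1, Chek2 and Xrcc6 lie inside the span of their gene. Sequences are printed as the plus strand of GRCm38.p6, the strand of all 5 genes, and the capitals of Xrcc6, Topbp1 and Chek2 are the reverse complement of a word. They lie at chr9:109875486-109875545 (Cdc25a), chr17:35841456-35841497 (Mdc1), chr15:82016297-82016356 (Xrcc6), chr9:103305172-103305231 (Topbp1) and chr5:110839805-110839864 (Chek2).
Cdc25a: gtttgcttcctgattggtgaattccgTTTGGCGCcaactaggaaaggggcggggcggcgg
Mdc1: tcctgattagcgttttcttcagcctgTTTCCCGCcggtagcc
Xrcc6: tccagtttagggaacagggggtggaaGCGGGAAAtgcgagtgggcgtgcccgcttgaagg
Topbp1: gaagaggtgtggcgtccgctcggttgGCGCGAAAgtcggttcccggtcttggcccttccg
Chek2: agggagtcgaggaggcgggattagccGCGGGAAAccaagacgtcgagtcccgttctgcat

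The second question was whether m6A-RIP counts of these genes changed, and whether they did so beyond the RNA. The m6A-RIP table names a transcript in each row and gives no position. Many transcripts stand in several rows, which were taken as separate peaks, and rows were summed per gene. Of 26 genes, 8 were higher and 11 lower in Lin28a+ MuSCs, against 32.5% and 33.7% of all 9413 genes tested. The higher genes were Cdc25a (0.89), Tipin (0.78), Mdc1 (0.44), Chek1 (0.34), Upf1 (0.28), Nop53 (0.28), Ttf2 (0.27) and Xrcc6 (0.19). Mre11a (-2.46), Atm (-1.08), Trip12 (-0.80), Smg1 (-0.78), Shprh (-0.69), Fbxw7 (-0.68), Wee1 (-0.57), Topbp1 (-0.56), Lig4 (-0.52), Rad18 (-0.33) and Nucks1 (-0.14) were lower. In both assays 13 of the 26 genes were called with the same sign (50%, against 49.2% of 7521 genes tested in both) and 0 with opposite signs (against 1.97%). A further 6 were called in m6A-RIP alone and 1, Rad1, in RNA alone. In DESeq2, 16 of the 19 m6A-RIP calls held, and those of Nucks1 (adjusted p = 0.0589), Rad18 (0.0802) and Ttf2 (0.0683) did not. Leaving out a single library removed calls of these 3 genes, and without Lin28a+ column 2 those of Chek1 (adjusted p = 0.0501) and Xrcc6 (0.151) as well, which left 5 genes higher. With total counts as scaling, Ttf2 (0.16, adjusted p = 0.167 in edgeR) and Xrcc6 (0.09, 0.183) lost their calls and Etaa1 (-0.44, 0.0345), Rnf168 and Trp53bp1 gained one, all lower.

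Among genes called in m6A-RIP and listed with peaks of both proteins, the 8 with most Lin28a-RIP counts are given per library. Chek1 is among them by counts that lie mostly in the neighbour Stt3a. Trip12 measured 257 and 251 CPM in control against 142 and 149 CPM in Lin28a+ MuSCs. Smg1 stood at 55.5 and 59.6 CPM in control and at 34.2 and 32.7 CPM in Lin28a+ MuSCs. Both fell by about as much as their RNA, Trip12 by 0.80 in m6A-RIP against 0.74 in RNA and Smg1 by 0.78 against 0.90 on the log2 scale. Atm had 9.56 and 10.8 CPM in the control libraries and 4.31 and 5.23 CPM in Lin28a+ MuSCs. Topbp1 measured 45.1 and 53.1 CPM in control against 30.7 and 35.4 CPM in Lin28a+ MuSCs. Topbp1 was thus lower in m6A-RIP (adjusted p = 1.96e-04 in edgeR) while its RNA was not called, but the difference between the 2 assays was not called either (-0.35, 95% interval -0.74 to 0.04, adjusted p = 0.372). Nucks1 stood at 118 and 123 CPM in control and at 111 and 108 CPM in Lin28a+ MuSCs. Shprh had 7.86 and 9.0 CPM in the control libraries and 5.22 and 5.20 CPM in Lin28a+ MuSCs. Neither gene overlapped between the groups, as was so for 22 of the 26 genes, and the share over all genes was not computed for m6A-RIP. Chek1 measured 28.7 and 27.7 CPM in control against 33.2 and 38.0 CPM in Lin28a+ MuSCs. Mdc1 stood at 48.5 and 47.6 CPM in control and at 69.0 and 61.8 CPM in Lin28a+ MuSCs. Both were higher in each Lin28a+ library.

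Rows of 1 gene did not always move alike. The 26 genes held 62 rows, of which 15 were higher and 18 lower, against 61.8% of all rows called in either direction. All 4 Trip12 rows (-0.83 to -0.64) and all 3 Fbxw7 rows (-0.76 to -0.50) fell, and all 3 Mdc1 rows rose (0.40 to 0.57). In Lig4, 3 rows fell (-0.98 to -0.47) and the fourth stood at 0.11. For Shprh the fall was in 1 row (-0.98) and not called in the other (-0.14), and for Wee1 likewise (-0.60 against 0.15). Xrcc6 had 2 rows higher (0.28 and 0.83) and 1 not called (0.11), and Nop53 had 2 rows higher (0.47 and 0.60) and 2 not called (0.13 each). Differences between the rows of a gene were not tested.

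A test of the difference between assays asked which genes changed in m6A-RIP beyond their RNA. Of the 26 genes, 1 was higher (background 3.35%) and 2 were lower (3.94%) relative to input. Mre11a, the nuclease of the MRN complex, stood out: its single m6A-RIP row had 80 and 47 counts in control and 8 and 14 counts in Lin28a+ MuSCs, or 2.43 and 2.13 CPM against 0.348 and 0.467 CPM. In the input the same gene had 20.2 and 20.1 CPM in the control libraries and 21.6 and 19.8 CPM in Lin28a+ MuSCs. The m6A-RIP groups lay apart while the RNA groups overlapped, and the m6A-RIP change exceeded the RNA change by -2.48 (SE 0.36, adjusted p = 1.95e-04 in edgeR), a call that held in every alternative that tested the gene. The row is shallow and its position on the transcript is not given in the table used here. Nop53 rose less in m6A-RIP, from 182 and 175 to 218 and 215 CPM, than in RNA, a difference of -0.27 (SE 0.05, adjusted p = 0.00881), and Nucks1 fell less (0.21, SE 0.05, adjusted p = 0.0219). These calls were lost in DESeq2 (adjusted p = 0.150 for Nop53 and 0.391 for Nucks1), and Mre11a alone was called there. Nop53 was not called without input control 2 or input Lin28a+ library 1 (adjusted p 0.0611 and 0.0603), and Nucks1 was not called without any 1 of the 4 input libraries or without m6A-RIP control 1 (0.0573 to 0.113). With Lin28a+ m6A-RIP column 1 left out, 5 genes passed, Etaa1 (-0.60) and Wee1 (-0.35) besides these 3, and Rad1 passed without m6A-RIP control 1 (-0.73).

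**Figure D3:**
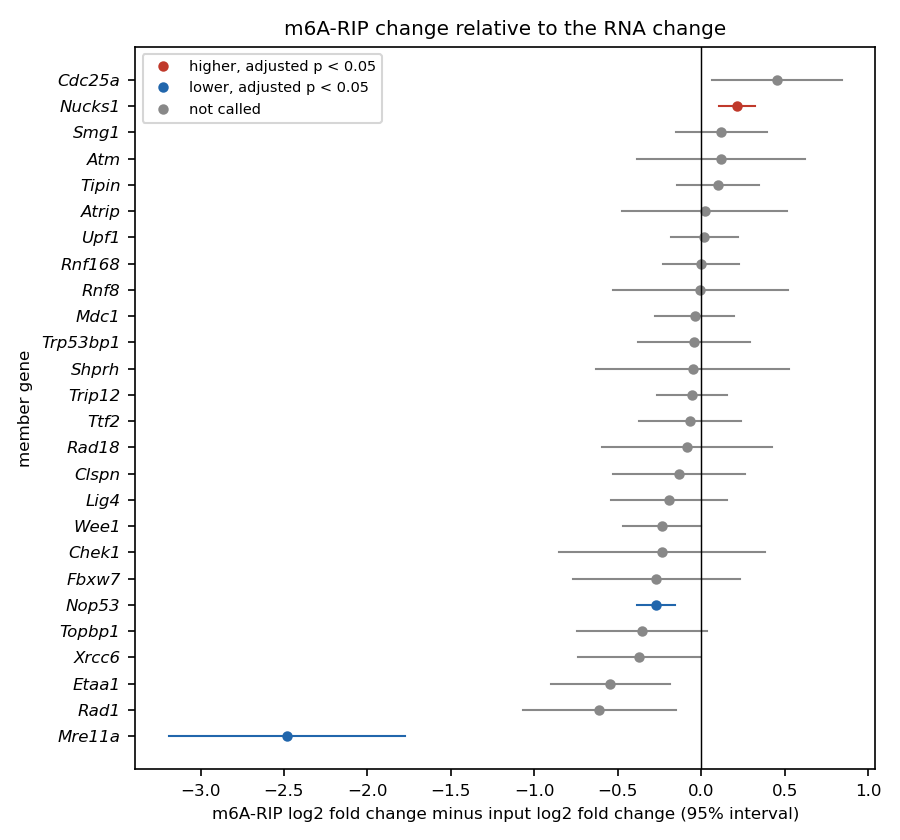
Change in m6A-RIP minus change in input RNA (log2 scale, x axis) for the 26 genes with m6A-RIP rows (y axis), with 95% intervals. Mre11a, at -2.48, lies far below the other genes, which range from -0.61 (Rad1) to 0.45 (Cdc25a), and most intervals include 0.

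Igf2bp3-RIP was compared between the groups to see whether the protein held more or less of these transcripts in Lin28a+ MuSCs. Of 198 peaks in 24 genes, 0 were called by edgeR, against 0.123% of all 19465 peaks; 2 had an unadjusted p under 0.05, and DESeq2 called 0. These 2 peaks were a Trp53bp1 peak (chromosome 2, 121244074 to 121244285; -0.83) and a Rif1 peak (chromosome 2, 52116506 to 52116887; 0.74). Summed per gene, 0 of the 24 genes were called by edgeR or by DESeq2 (background 0.287% in edgeR), and only Rif1 had an unadjusted p under 0.05. Rif1 measured 200 and 144 CPM in control against 246 and 282 CPM in Lin28a+ MuSCs, which do not overlap (log2 fold change 0.62, 95% interval 0.04 to 1.21, adjusted p = 0.548 in edgeR). The groups did not overlap in 8 of the 24 genes, and the share over all genes was not computed for Igf2bp3-RIP. The common biological coefficient of variation per peak was 27.9%, beside 2.48% in the input, so that smaller changes were not detectable here. Atm, for example, stood at 260 and 320 CPM in control and at 183 and 270 CPM in Lin28a+ MuSCs, with an interval from -0.99 to 0.28. With the replicate number of the labels as a block, 6 peaks (4 of Rif1, 0.63 to 1.05; 1 of Xrcc5, -0.97; 1 of Atm, -0.87), or 3.03% against 10.2% of all peaks, and, per gene, Xrcc5 (-0.98, adjusted p = 0.0425 in edgeR), 1 of 24 against 8.18% of all genes, passed, but the labels do not say what the number stands for.

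Relative to input, 0 of 24 genes changed in Igf2bp3-RIP in either tool (background 1.36% in edgeR), and 3 had an unadjusted p under 0.05. These were Ttf2 (-0.78, adjusted p = 0.132), Nbn (-0.43, 0.169) and Trp53bp1 (-0.69, 0.193). Leaving out Lin28a+ Igf2bp3-RIP replicate 1 brought Smg1 (0.91) and Trp53bp1 (-0.97) past the threshold, and leaving out control replicate 2 brought Mdc1 (-0.86).

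The last question was which of these transcripts the RIP tables list as bound. Lin28a-RIP peaks were assigned to 31 of the 40 genes (77.5%), against 25.7% of the genes tested in RNA, and Igf2bp3-RIP peaks to 24 (60.0%), against 33.3%. The m6A-RIP share was 26 (65.0%), against 66.5%. In all 3 tables were 18 genes (45.0%, against 17.3% of genes tested), and 5 were in none (12.5% against 26.9%), namely Rad17, Rad9a, Chek2, Xrcc4 and Nhej1. Atr, Rad50, Nbn, Rif1 and Xrcc5 had peaks of both proteins without an m6A-RIP row, Timeless, Prkdc and Hltf had Lin28a-RIP peaks alone, and Hus1 had Igf2bp3-RIP peaks alone. Atrip, Rad1 and Rnf168 were in the m6A-RIP table alone, and Tipin, Cdc25a, Mre11a, Rnf8 and Xrcc6 in m6A-RIP and Lin28a-RIP. The 40 genes were chosen with earlier results of these data known, so these shares are a description and no test. Outside the 40, Lin28a-RIP peaks were listed for 3 of 13 other end-joining and 3 of 14 other break-site chromatin genes. They were also listed for 6 of 23 other checkpoint and 12 of 16 S-phase genes.

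Peak and gene are paired as the tables pair them, and a few pairs do not hold by position. Of 314 Lin28a-RIP peaks, 310 overlapped the RefSeq span (GRCm38.p6) of their gene, as did 190 of 198 Igf2bp3-RIP peaks (98.7% and 96.0%, against 86.1% and 80.6% of all peaks). The only Lin28a-RIP peak listed under Tipin lies in Dis3l, and the Lin28a-RIP peak and both Igf2bp3-RIP peaks listed under Nop53 lie in Ehd2. For Chek1, 2 of 6 Lin28a-RIP peaks and 1 of 3 Igf2bp3-RIP peaks lie in the neighbour Stt3a, with 78.7% and 73.4% of the counts listed under Chek1. Under Topbp1, 2 Igf2bp3-RIP peaks with 36.1% of its Igf2bp3-RIP counts lie in Cdv3, and 3 Rad18 peaks (12.6% of counts) lie in no RefSeq gene. With peaks inside the span of their own gene alone, 29 genes (72.5%) had Lin28a-RIP peaks, against 22.3% of genes tested, and 23 (57.5%) had Igf2bp3-RIP peaks, against 28.7%. The m6A-RIP rows carry no positions and could not be checked in this way.

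The number of Lin28a-RIP peaks per gene ranged widely. Smg1 had 47 peaks (47229 and 44064 counts), Atm 38 (16181 and 15071) and Trip12 36 (84223 and 78321), followed by Shprh with 21, Rif1 with 20 and Clspn with 18. Topbp1, Rad50 and Trp53bp1 had 16 each, Atr 14, Prkdc 11 and Hltf 10, and the other 19 bound genes had 1 to 7. Set against input CPM, the summed Lin28a-RIP CPM of the 31 genes ranked from percentile 3.26 (Nop53, whose peak lies in Ehd2) to 97.7 (Rif1) among 2903 bound genes, with a median of 50.9. With peaks in the span of their own gene alone, 29 genes ranked from 2.99 (Xrcc5) to 98.4 (Rif1) among 2525, with a median of 55.5. Of the 12 genes with at least 10 peaks, 11 were at or above percentile 80, the exception being Prkdc at 49.97. Chek1 was at 93.3 with all its peaks and at 71.0 with the 4 in its own span. These ratios set different stretches of RNA against each other and grow with the number of peaks summed, and they were not tested.

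**Figure D4:**
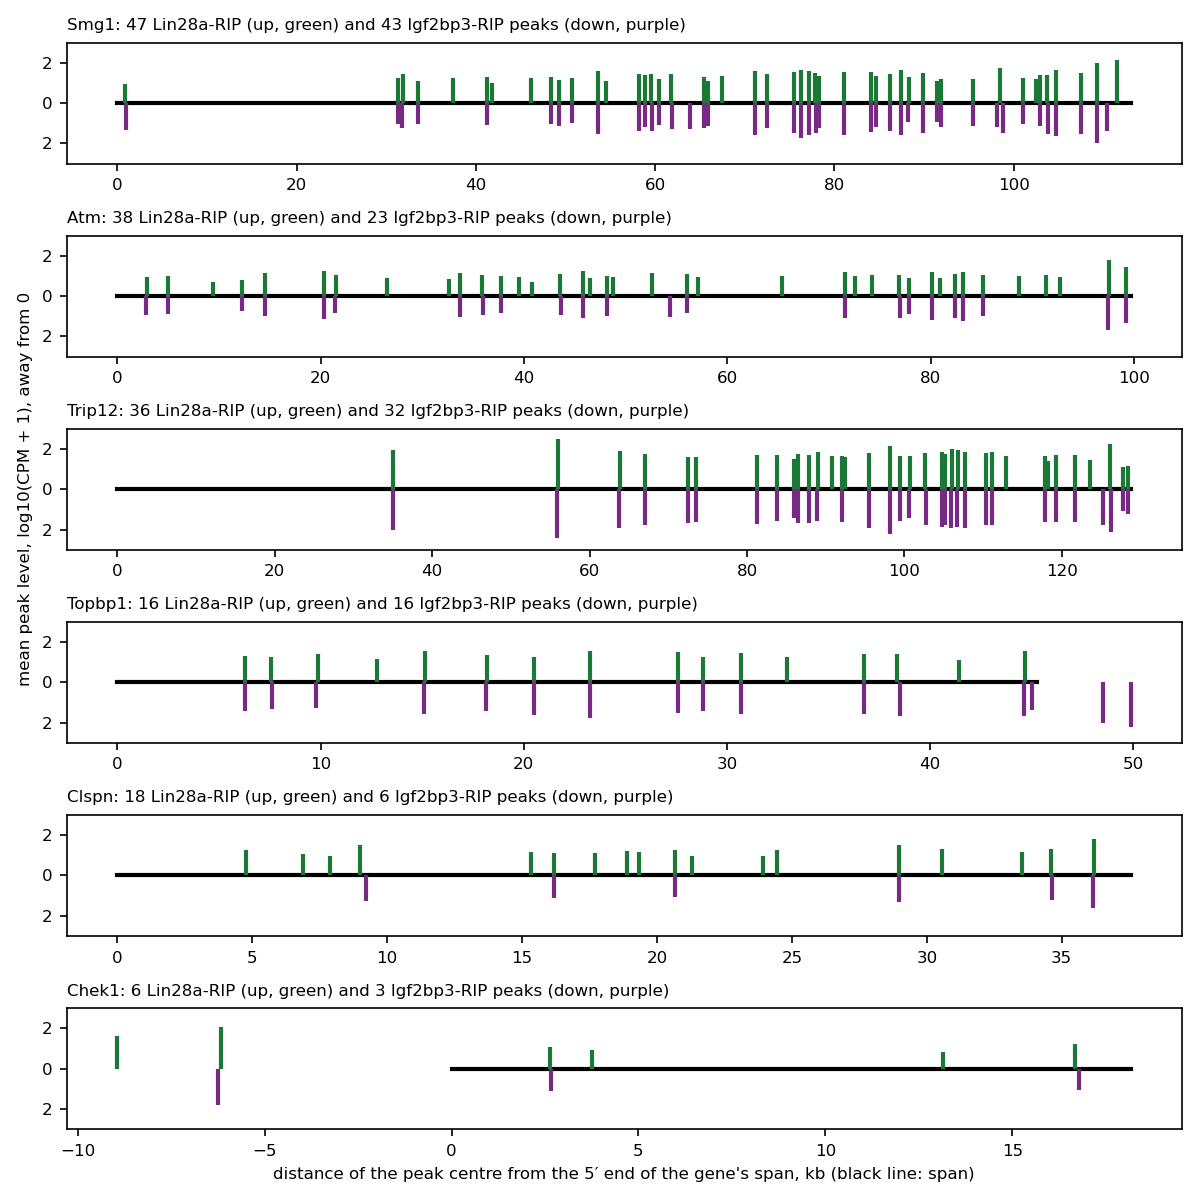
Position of Lin28a-RIP peaks (green, upward) and Igf2bp3-RIP peaks (purple, downward) along 6 genes, as distance of the peak centre from the 5′ end of the gene's span in kb (black line: span), with height as log10(mean CPM + 1). Smg1, Atm and Trip12 carry 47, 38 and 36 Lin28a-RIP peaks, and the peaks left of the Chek1 span and right of the Topbp1 span lie in the neighbouring genes Stt3a and Cdv3.

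The strongest Lin28a-RIP peak was placed along the span for 19 genes with at least 2 peaks. It lay in the last 10% of the span in 6, in the first 10% in 2 (Upf1 and Hltf) and between in 11. In Smg1 it covered chromosome 7, 118131396 to 118134317, at 98.6% of the way from the 5′ to the 3′ end, and held 10.6% of the gene's Lin28a-RIP counts. In Atm it covered chromosome 9, 53438330 to 53440270 (97.8% of the way, 13.8% of counts), and in Clspn chromosome 4, 126592501 to 126593835 (96.4%, 18.5%). The strongest peaks of Topbp1 (98.7%), Xrcc5 (99.8%) and Rad18 (98.9%) lay there too, whereas that of Trip12 lay mid-gene (43.5%). The single peaks of Fbxw7 (99.8%) and Cdc25a (0.394%) lay at the far end and on the start site. Coordinates are those of the tables, which name no build, and spans are RefSeq GRCm38.p6. Of the 259 peaks in 24 genes with a known strand, 36 (13.9%) lay in the last 10% of the span. The strongest Rif1 peak, chromosome 2 from 52109718 to 52112959, alone held 45.7% of the counts of that gene, and the Mdc1 peak at chromosome 17, 35852351 to 35854290, held 50.4%.

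Peaks of both proteins were compared by position. Of the 198 Igf2bp3-RIP peaks, 171 (86.4%) overlapped a Lin28a-RIP peak by at least 1 bp, against 60.4% of all Igf2bp3-RIP peaks. Over genes with peaks in both tables, these shares were 87.2% of 196 peaks and 77.2% of 15201. In the other direction, 170 of 314 peaks of Lin28a-RIP (54.1%) touched one of Igf2bp3-RIP, against 52.4% of all. Over genes with peaks of both proteins, these shares were 61.4% and 57.5%. All 32 Igf2bp3-RIP peaks of Trip12, 42 of 43 in Smg1, 22 of 23 in Atm, all 7 in Rad50 and all 10 in Shprh overlapped a Lin28a-RIP peak. Smg1, Trip12 and Atm hold 43, 32 and 23 of the 198 peaks, so the pooled shares rest largely on them. Shares without them were not computed, and peaks of 1 gene are not independent. Rad18 (4 of 10), Nucks1 (3 of 8) and Fbxw7 (1 of 6) had Igf2bp3-RIP peaks mostly away from Lin28a-RIP peaks, and Hltf, Prkdc and Timeless had 10, 11 and 7 Lin28a-RIP peaks and no Igf2bp3-RIP peak.

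The number of Lin28a-RIP peaks was set beside the RNA change. Of the 12 genes with at least 10 peaks, 0 were higher and 7 lower in RNA (edgeR; Atm, Atr, Rad50, Trip12, Prkdc, Smg1 and Shprh), with a median log2 fold change of -0.64. DESeq2 kept Atm, Trip12 and Smg1 of the 7. The other 5 (Rif1, Clspn, Topbp1, Trp53bp1 and Hltf) were not called. Of the 19 genes with 1 to 9 peaks, 8 were higher and 3 lower in edgeR (median 0.21), and of the 9 without a peak 3 were higher and 1 lower (median 0.11). In the class of 1 to 9 peaks, DESeq2 kept 2 of the 8 higher genes, Tipin and Nop53, whose only peaks lie in Dis3l and Ehd2, and all 3 lower ones. Among all genes tested, 54.1% of the 658 genes with at least 10 peaks were lower and 16.0% higher (median -0.32), so the share of lower genes among the 12 (58.3%) was near that background. Of the 2245 genes with 1 to 9 peaks, 39.1% were lower and 21.9% higher (median -0.16), and of the 8399 without a peak 23.9% and 30.8% (median 0.08). Across the 40 genes, the number of peaks and the RNA change had Pearson's r = -0.62 and Spearman's rho = -0.47, and without Atm and Smg1 r = -0.48 over 38 genes. Over all 11302 genes these were -0.09 and -0.17, and over the 2903 bound genes -0.14 and -0.16. The points share libraries, the peak number rises with gene length, and these groups by peak number were chosen after the values were seen, so the values are a description with no test.

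**Figure D5:**
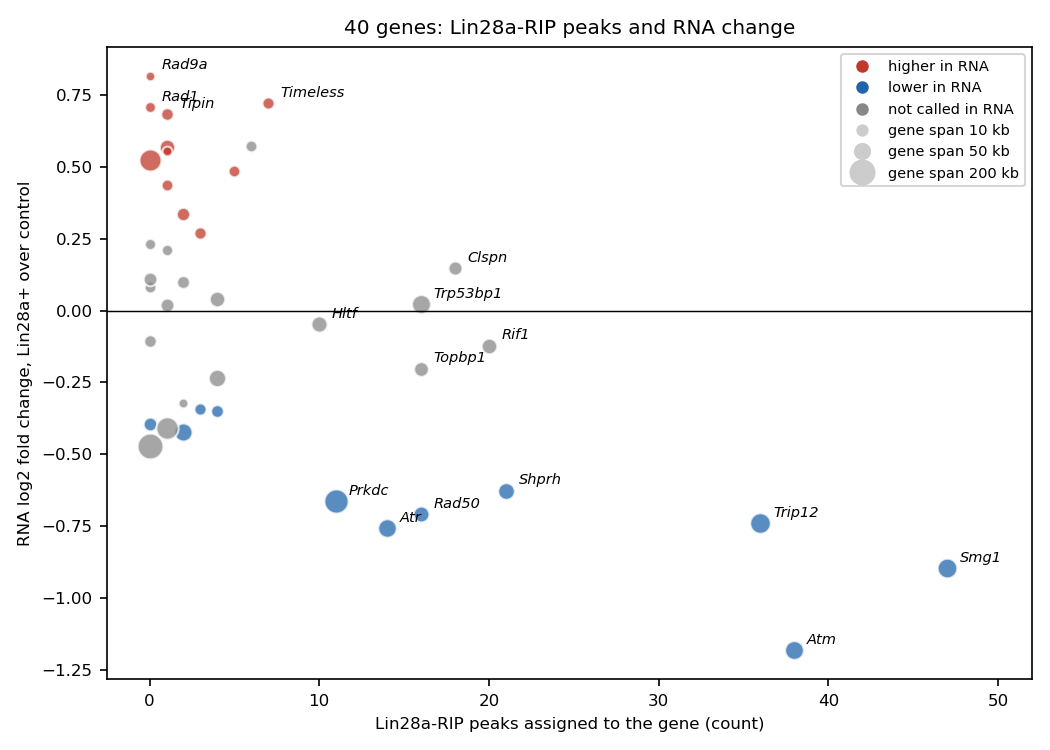
Number of Lin28a-RIP peaks assigned to each of the 40 genes (x axis) against the log2 fold change of its input RNA, Lin28a+ over control (y axis), with point size for gene span and colour for the RNA call. The 12 genes with at least 10 peaks range from -1.18 (Atm) to 0.15 (Clspn), and 7 of them were called lower.

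Gene length also differed between the called genes. The 11 lower genes had a median span of 87.5 kb and the 11 higher genes one of 20.9 kb, beside 41.7 and 12.9 kb for all lower and all higher genes. Across the 40 genes, log2 span and RNA change had r = -0.62 and rho = -0.66, and across 11139 genes with a span rho was -0.35. Nhej1, which spans 158 kb and was higher without a Lin28a-RIP peak, and Wee1, which spans 21.2 kb and was lower with 3 peaks, ran against that relation. The part of gene length in the relation of peaks to RNA was not tested.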

How the data were processed

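The members and the gene lists were chosen with earlier results of these data known. Per the methods, reads were trimmed and aligned with HISAT2 2.0.4, and the processing notes also name FastQC, MACS2 1.4.3, DESeq2 1.42.0 and the builds GRCh38 and mm10. The methods name GRCh38, a human assembly, whereas the tables hold mouse identifiers. The counting program, peak threshold and pooling for peak calling are not given in the sources used here. Input values are estimated counts of each gene as deposited, without scaling, and 5.98% of genes were whole in all 4 libraries (exactly, with no tolerance). RIP values are unscaled whole-number counts as the authors deposited them, with positions of peaks for both proteins and transcripts without positions for m6A. Both m6A-RIP columns of Lin28a+ MuSCs carry 1 name, and those of the input carry m6A-RIP names, so these 4 were assigned to their group without a number.

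Input values were rounded. edgeR 4.0.16 in R 4.3.3 (TMM factors, filterByExpr, quasi-likelihood test, Benjamini-Hochberg adjusted p under 0.05 over all features) was run per gene, row or peak over the 2 groups compared. Relative to input, an interaction of cells and assay was tested with TMM factors within each assay. CPM per library use the TMM-scaled library size. Standard errors come from the test's F and 95% intervals from its degrees of freedom, both held at or above the counting error of the group sums. Alternatives were DESeq2 1.42.0, its size factors, total counts, no filter or at least 10 counts in every library, each library left out, a replicate block, and other definitions of bound and shared peaks. The tests were checked on simulated counts, where few changed Igf2bp3-RIP peaks were recovered. Replicates differed by more than sampling noise in each RIP assay (chi-square per degree of freedom 4.46 to 99.7) and, in the input, over 512 genes with whole counts (1.66 and 1.79). Over all input genes of 20 to 100 counts, the variance between replicates was averaged over both groups. It was 0.634 times the mean, less than counting alone gives. Among the 782 most abundant genes it averaged 30.6 times the mean, but the median ratio was 0.650. The high average thus does not describe most of these genes. Whether the input replicates are independent libraries cannot be told from these values, and both were kept in each group. Library values are given for the 2 most changed called genes of each role, the 8 bound genes with most Lin28a-RIP counts called in m6A-RIP, and genes called relative to input. Others named with library values (Chek1, Xrcc5, Rif1, Atm in Igf2bp3-RIP) were chosen after their values were seen. Gene spans and promoter windows are RefSeq, GRCm38.p6, and 40 symbols matched. With 2 libraries per group, no test of unusual samples was possible.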

Additional observations from a re-analysis of the deposited data

How the results depend on the processing

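With DESeq2, 3039 genes passed in RNA and 2 genes of the set were called higher and 6 lower, in place of 11 and 11. With at least 10 counts in every library, the RNA values of Nbn (-0.0036) and Trp53bp1 (-0.0011) turned negative, and leaving out 1 library gave ranges across 0 for Hltf (-0.13 to 0.027), Nbn (-0.020 to 0.060), Mre11a (-0.024 to 0.099) and Trp53bp1 (-0.0065 to 0.052), none of them called. In m6A-RIP, 5 to 8 genes of the set were higher when 1 library was left out. Over all Igf2bp3-RIP peaks, 263 passed in DESeq2, 0 with at least 10 counts in every library and 108 to 193 with 1 library left out. Over all genes in Igf2bp3-RIP, these were 115 in DESeq2, 7 with total counts as scaling and 39 to 76 with 1 library left out. For m6A-RIP relative to input, DESeq2 called 340 genes and 1 of the set, and leaving out a library gave 304 to 614 and 1 to 5. For Igf2bp3-RIP relative to input, total counts gave 100 genes, and leaving out a library 0 to 630 genes and 0 to 2 of the set. The causes were not tested.

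Among all genes tested, the share with Lin28a-RIP peaks was 27.3% for genes with at least 10 counts in every input library and 22.3% for peaks in the span of their gene, a check added after seeing the data. For Igf2bp3-RIP it was 28.8% with at least 100 counts per peak, 35.2% and 28.7%, for m6A-RIP 58.5% and 69.7%, and for presence in m6A-RIP and both protein tables it was 15.1%, 18.6% and 14.8%. With at least 100 counts the shares of the 40 genes fell too, to 47.5% for Igf2bp3-RIP, 52.5% for m6A-RIP and 35.0% for all of them, and stayed at 77.5% for Lin28a-RIP. With a reciprocal overlap of 50%, 157 of 314 Lin28a-RIP peaks of the set were shared, against 43.0% of all, and over genes with peaks of both proteins 56.7% against 47.2%. The median Lin28a-RIP percentile was 56.4 when the highest peak replaced the sum, and the median difference of the lower genes was -0.66 with a pseudocount of 0.1 CPM.

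The replicate block, which uses the number in the labels, raised Igf2bp3-RIP calls to 1988 peaks (6 in the set) and 370 genes (1 in the set, Xrcc5, -0.98). Replicate 2 minus replicate 1 correlated between the groups across 4524 genes (r = 0.69), a hint from 2 pairs of unequal depth. No paired analysis was possible for input and m6A-RIP because their Lin28a+ columns carry no replicate numbers of their own. Igf2bp3-RIP replicate 1 had less depth than replicate 2 in both groups, and Atr, Timeless, Hltf and Chek1 rest on 13 to 32 counts in every input library, so smaller changes of these genes were not detectable.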

Other observations

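The neighbouring pathway lists were also read for RIP peaks, with no test between them, beside 25.7% of all genes tested with Lin28a-RIP peaks and 33.3% with Igf2bp3-RIP peaks. Of the other end-joining genes, 3 of 13 had Lin28a-RIP peaks and 4 had Igf2bp3-RIP peaks. Of the other break-site chromatin genes these were 3 and 5 of 14, and of the other checkpoint genes 6 and 8 of 23. S-phase genes had Lin28a-RIP peaks in 12 of 16 and Igf2bp3-RIP peaks in 9 of 16, while 14 of the 16 were higher in RNA. Igf2bp3 itself had more RNA in Lin28a+ MuSCs, from 11.6 and 10.6 CPM in the control libraries to 35.6 and 33.9 CPM (log2 fold change 1.65, SE 0.15, adjusted p = 2.92e-05 in edgeR).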
